A study of Mus musculus with 50 samples.

Results

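The 10 genes described here, Bin1, Picalm, Inpp5d, Abi3, Plcg2, Sorl1, Ms4a6d, Cd2ap, Ptk2b and Rin3, are mouse genes whose human counterparts or gene cluster lie at loci associated with the risk of Alzheimer's disease. They were chosen by symbol and not by a threshold on their values, but with earlier results of these data known. All 10 were found among the 53700 genes of the count tables. Poly-A RNA was sequenced from hippocampal microglia of 50 male C57BL/6J mice, sorted as CD45int CD11b+ cells, with 1 library per mouse. The mice had been raised under control conditions (CTR) or exposed to early-life stress (ELS), in which dams and pups have little bedding and nesting material between postnatal day (P) 2 and P9. The groups sampled at P9 were P9-CTR (n = 12) and P9-ELS (n = 13), without injection. The adult groups at P200 received an intraperitoneal injection of PBS or of 1 mg/kg LPS, a bacterial cell wall component, 3 hours before sacrifice: 7 mice of P200-CTR-PBS, 7 of P200-CTR-LPS, 6 of P200-ELS-PBS and 5 of P200-ELS-LPS. Myelin was removed with Percoll in adult brains but not at P9, and only the adults were injected. Age therefore cannot be told apart from this preparation step or from the injection. The number that opens a mouse's label, which the sources do not define, was treated as its nest. Several mice share one, and within an age each had 1 rearing condition.

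Microglia are the resident macrophages of the brain, and a large share of the inherited risk of late-onset Alzheimer's disease lies near genes that these cells express. The proteins of the 10 genes meet in a few processes. Bin1, Picalm, Cd2ap, Rin3 and Sorl1 act in endocytosis and endosomal sorting: Bin1 binds and bends membranes, Picalm recruits clathrin, Cd2ap links membrane proteins to actin, Rin3 activates small GTPases of the early endosome, and Sorl1 is a sorting receptor that returns cargo such as the amyloid precursor protein from endosomes. Plcg2, a phospholipase, and Inpp5d, a lipid phosphatase that restrains immune receptors, act below TREM2 and other receptors that signal through tyrosine kinases. Ptk2b is a calcium-responsive tyrosine kinase. Abi3 belongs to the adaptors of the WAVE complex that drives actin branching, and Ms4a6d is a tetraspanning membrane protein of the MS4A family, whose human gene cluster carries a risk locus.

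Of the microglia markers checked, Tmem119 lay between 1251 and 2644 CPM (counts scaled to the TMM-normalized size of the library) at P9 and between 4556 and 12060 CPM at P200, and P2ry12 between 7116 and 10220 CPM at P9 and between 6942 and 16170 CPM at P200, leaving out the 3 libraries named below. The 5 neutrophil markers summed to at most 3.68 CPM in a mouse, with Ly6g and Retnlg at 0 in all mice. Between 5152838 and 42231258 reads were counted in a mouse. In 3 mice the libraries stood apart, with 12482 (P9-ELS mouse 19-3), 12854 (P200-CTR-PBS mouse 1-1) and 15731 (P9-ELS mouse 19-2) detected genes against 16485 to 21100 in the other 47. In mouse 19-2 the deviation of genes from the group fell by 0.824 on the log2 scale per 10 points of GC content, and in mouse 19-3 it rose by 0.771. This slope lay between -0.197 and 0.401 in the other 47 mice, and that of mouse 1-1, at -0.099, was within this range. Mouse 19-2 also had 180 CPM of Tmem119 and 630 CPM of Csf1r, the latter against 3533 to 15450 CPM in the P9 mice outside these 3 libraries. All 50 mice entered the main tests, and the main results are given also for the 47 mice without them.

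The genes lie on 10 different chromosomes of the mouse genome GRCm39, and the counts refer to reads in their annotated exons. Bin1 spans chr18:32509621-32571547, Picalm chr7:89779270-89862673, Inpp5d chr1:87547989-87648230, Plcg2 chr8:118224988-118361881 and Rin3 chr12:102249296-102357114, all on the plus strand. On the minus strand, Abi3 spans chr11:95720900-95733302, Sorl1 chr9:41876012-42035656, Ms4a6d chr19:11563968-11582213, Cd2ap chr17:43103839-43187613 and Ptk2b chr14:66386033-66518939.

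Exons of Abi3 overlap on the opposite strand those of Zfp652 (34.0% of the exon bases of Abi3), Phospho1 (19.9%) and Gngt2 (10.1%), and 22.8% of the exon bases of Ptk2b overlap Chrna2. The strand setting of the counting is not given in the sources used here, so that reads from these overlaps may not be told apart. Of the 50-base windows of the longest Ms4a6d transcript, 2.92% occur also in its paralogue Ms4a6b, and no window of the other 9 genes occurs in a listed paralogue.

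The 250 bases before the start of the canonical transcript are shown for Abi3, which has the largest age difference in CTR mice, and for Picalm, which was higher both at P200 and after LPS in CTR mice. Capitals mark motif matches on either strand. The windows, read from GRCm39 and written 5′ to 3′ along the gene's strand, are chr11:95733290-95733539 (minus) for Abi3 and chr7:89779020-89779269 (plus) for Picalm.
Abi3: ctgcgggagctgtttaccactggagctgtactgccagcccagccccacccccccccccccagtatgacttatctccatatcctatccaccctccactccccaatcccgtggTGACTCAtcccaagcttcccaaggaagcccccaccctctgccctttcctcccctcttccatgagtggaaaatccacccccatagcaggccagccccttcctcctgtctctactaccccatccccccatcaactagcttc
Picalm: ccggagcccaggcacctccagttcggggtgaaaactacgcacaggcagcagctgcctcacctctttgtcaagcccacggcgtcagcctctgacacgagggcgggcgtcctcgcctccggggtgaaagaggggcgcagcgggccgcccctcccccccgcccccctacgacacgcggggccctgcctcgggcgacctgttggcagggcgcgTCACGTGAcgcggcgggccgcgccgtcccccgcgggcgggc

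The motifs searched on both strands of these windows were GGAAGT (a core of PU.1), TGANTCA (AP-1), TCACGTG (an E-box of the MiT factors) and, for NF-kB, GGGACTTTC and a form of it with any central base and a further C. Shares are of 21757 windows of protein-coding genes. Abi3 holds an AP-1 match starting 139 bases before its transcript (6.18% of windows), and Picalm an E-box starting 41 bases before its own, which reads as a match on both strands with a shift of 1 base (3.12% of windows). Neither NF-kB form (0.3% and 0.42% of windows) nor GGAAGT (18.96%) occurs in the windows of Abi3 and Picalm. A match is a description of these letters only.

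Levels were first compared between the genes per length, as CPM per kb of annotated exon. In P200-CTR-PBS mice Ms4a6d was highest at 132 ± 25.9 CPM per kb (SD, n = 7), followed by Inpp5d at 78.8 ± 16.2 and Abi3 at 72.6 ± 7.15, which overlap in their spread. Bin1 (51.12 ± 8.28) and Plcg2 (44.8 ± 11.8) were next and also overlap. The mean of Picalm, 20.9 ± 2.89, lay further than these SDs from its neighbours. Rin3 (5.72 ± 2.43), Ptk2b (3.92 ± 1.40), Cd2ap (2.37 ± 0.491) and Sorl1 (1.76 ± 0.811) formed the low end, each overlapping the next. At P9, Ms4a6d, Inpp5d and Bin1 led in both rearing conditions, while Abi3 ranked below Plcg2. The order depends on the length used: per kb of coding sequence, Abi3 led in P200-CTR-PBS at 570 ± 56.1 CPM per kb, followed by Bin1 at 318 ± 51.4.

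**Figure D1:**
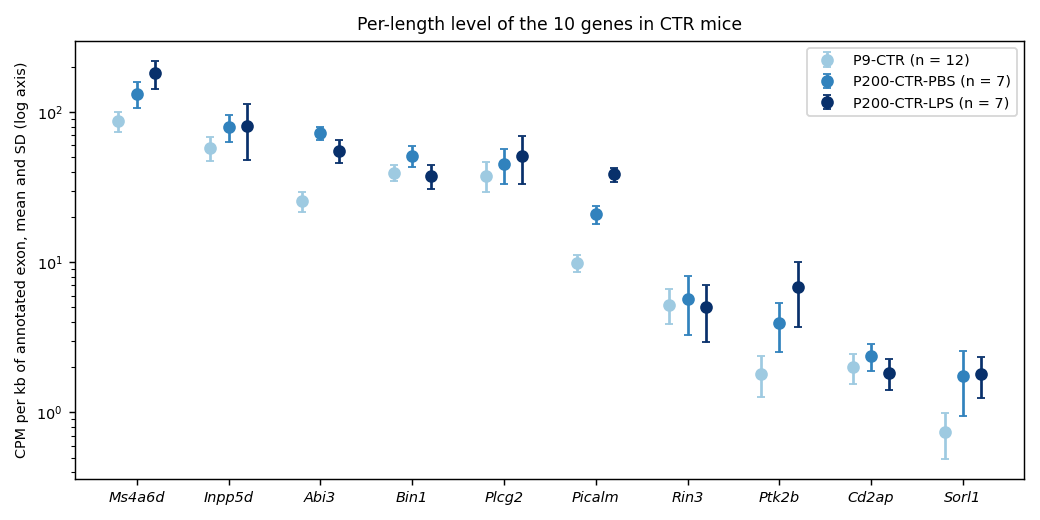
Per-length level of the 10 genes in P9-CTR, P200-CTR-PBS and P200-CTR-LPS mice, as CPM per kb of annotated exon on a log axis, with points for the group mean and bars for the SD. Abi3 and Picalm stand further above their P9 level in P200-CTR-PBS mice than Rin3 and Cd2ap do.

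**Figure D2:**
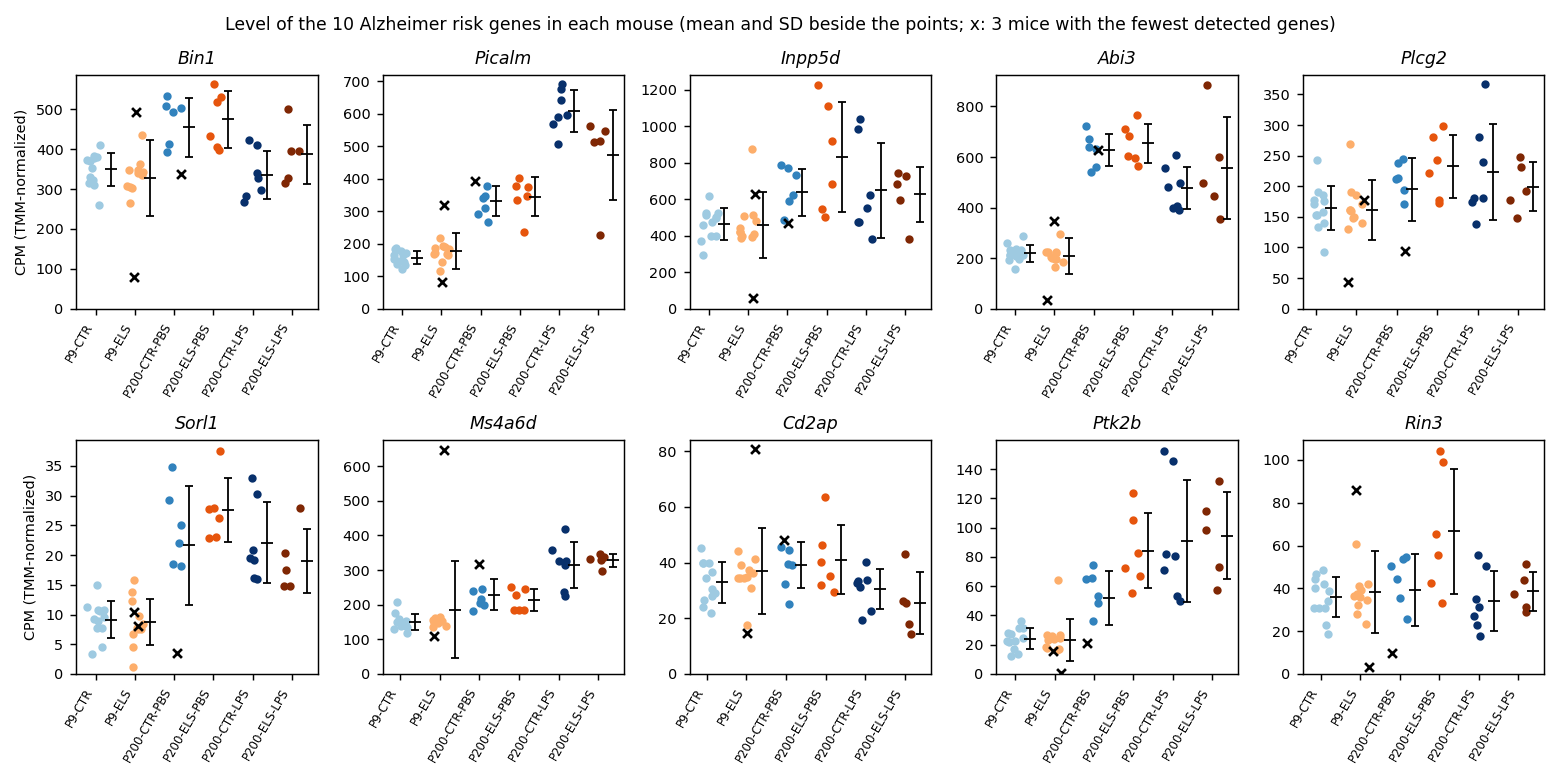
CPM of the 10 genes in each of the 50 mice by group, with the group mean and SD beside the points and crosses for the 3 mice with the fewest detected genes. Abi3 and Picalm at P200-CTR-PBS lie above every P9-CTR mouse, and the cross at 646 CPM of Ms4a6d is P9-ELS mouse 19-2.

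The first question was which of the genes differ between the early postnatal and the adult hippocampus. In CTR mice, 6 of the 10 genes were higher at P200 than at P9 and none was lower: Abi3, Sorl1, Ptk2b, Picalm, Ms4a6d and Bin1 (edgeR quasi-likelihood test, adjusted p under 0.05). Of all 16696 genes tested, 17.4% were higher and 26.6% were lower. In ELS mice, 8 of the 10 genes were higher and none was lower, against 17.15% and 25% of all genes. Inpp5d, Plcg2 and Rin3 passed in place of Ms4a6d. The 10 genes had a median log2 fold change of 0.53 in CTR and 0.83 in ELS mice, against -0.09 and -0.014 over all genes. The age and LPS comparisons of a rearing condition share their PBS mice. Counting only differentially expressed genes (DEGs), with an absolute log2 fold change above 1, Abi3, Sorl1, Ptk2b and Picalm passed in CTR (7.98% of all genes were higher DEGs) and Abi3, Sorl1 and Ptk2b in ELS mice (8.68%).

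Abi3, the actin adaptor, had the lowest, median and highest values of 158, 212 and 288 CPM in P9-CTR and of 539, 632 and 721 CPM in P200-CTR-PBS mice. No adult mouse overlapped a P9 mouse. The log2 fold change was 1.51 ± 0.18 (SE, adjusted p = 1.928e-09), and in ELS mice 1.65 ± 0.19 (adjusted p = 3.011e-10). In P9-ELS it had 33.3, 205 and 345 CPM, where both extremes were the 2 mice of nest 19 that stood apart, and in P200-ELS-PBS 563, 644 and 765 CPM. Picalm, the clathrin adaptor, had 123, 159 and 186 CPM in P9-CTR and 266, 340 and 394 CPM in P200-CTR-PBS mice, again without overlap (log2 fold change 1.08 ± 0.15, adjusted p = 4.422e-08). In P9-ELS it reached 320 CPM in mouse 19-2, so that the range overlapped the 235 to 401 CPM of P200-ELS-PBS, and its log2 fold change there was 0.96 ± 0.15 (adjusted p = 1.016e-06).

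Abi3 and Picalm were the 2 genes whose groups did not overlap in CTR, where 17.09% of all genes had no overlap, and Abi3 and Sorl1 the 2 in ELS mice, where 11.6% had none. Without the 3 mice that stood apart, these counts were 3 in CTR (21.1% of all genes) and 4 in ELS mice (18.4%).

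Sorl1, the sorting receptor, had the lowest mean per kb of exon in P9-CTR and P200-CTR-PBS mice. Its CPM values were 3.29, 9.42 and 15 CPM in P9-CTR against 3.46, 22 and 34.8 CPM in P200-CTR-PBS mice. The lowest adult value was that of mouse 1-1, and the other 6 adult mice lay above every P9-CTR mouse. The log2 fold change was 1.24 ± 0.29 (adjusted p = 0.0004045), and 1.65 ± 0.29 in ELS mice (adjusted p = 7.569e-06), where P9-ELS ranged from 1.13 to 15.7 CPM and P200-ELS-PBS from 22.8 to 37.5 CPM. Ptk2b, the calcium-responsive kinase, had 12.6, 23.6 and 36.5 CPM in P9-CTR and 21.3, 53 and 74.5 CPM in P200-CTR-PBS mice. Its ranges overlapped, and the log2 fold change was 1.11 ± 0.31 (adjusted p = 0.003291). In ELS mice it was 1.86 ± 0.32 (adjusted p = 3.82e-06), from 0.76 to 64.5 CPM at P9 to 55.5 to 124 CPM at P200.

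Ms4a6d had 119, 148 and 208 CPM in P9-CTR and 183, 216 and 318 CPM in P200-CTR-PBS mice (log2 fold change 0.60 ± 0.20, adjusted p = 0.01043). In ELS mice its log2 fold change was 0.19 ± 0.21 (adjusted p = 0.4862), and this value rests on mouse 19-2, which had 646 CPM. The other 11 P9-ELS mice outside the libraries that stood apart had 135 to 164 CPM, below all 6 P200-ELS-PBS mice at 184 to 250 CPM, and the log2 fold change without the 3 mice was 0.49 ± 0.10 (adjusted p = 5.409e-05). Bin1, the membrane-bending protein, had 260, 362 and 412 CPM in P9-CTR and 337.5, 493.3 and 534 CPM in P200-CTR-PBS mice. Its log2 fold change was 0.38 ± 0.16 (adjusted p = 0.04458) and lost the call when any of 9 single CTR mice was left out, with adjusted p up to 0.09735. In ELS mice it was 0.53 ± 0.16 (adjusted p = 0.006205).

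Inpp5d and Plcg2, the lipid-signalling enzymes, and Rin3 passed with all 50 mice in ELS but not in CTR mice, and the difference between the conditions did not pass its own test, given below. Inpp5d had 296, 486 and 616 CPM in P9-CTR and 470.5, 621.5 and 788 CPM in P200-CTR-PBS mice, with a log2 fold change of 0.46 ± 0.23 (adjusted p = 0.1074, and 0.03053 without mouse 19-2, which is in neither group). In ELS mice it was 0.86 ± 0.24 (adjusted p = 0.002528), from a median of 423 to a median of 801 CPM. Plcg2 had 92.6, 164 and 243 CPM in P9-CTR and 93.5, 212 and 245 CPM in P200-CTR-PBS mice, which overlap over most of their range. In CTR mice its log2 fold change was 0.25 ± 0.19 (adjusted p = 0.3179), and ELS mice had 0.53 ± 0.20 (adjusted p = 0.02694). Rin3, the endosomal GTPase activator, had log2 fold changes of 0.13 ± 0.30 (adjusted p = 0.7551) in CTR and, from a median of 36.6 to one of 60.4 CPM in ELS mice, 0.80 ± 0.30 (adjusted p = 0.02907). Plcg2 and Rin3 lost the call in ELS mice when P200-ELS-PBS mouse 2-1 or mouse 4-1 was left out, with adjusted p of 0.08772 and 0.07326 for Plcg2 and of 0.1187 and 0.1049 for Rin3. Cd2ap, the actin-linking scaffold, passed in neither condition, at 33 ± 7.38 CPM in P9-CTR (SD, n = 12) and 39.1 ± 8.11 CPM in P200-CTR-PBS mice (SD, n = 7).

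Without the 3 mice that stood apart, 8 of the 10 genes were higher in CTR mice (21.1% of 16581 genes; none of the 10 lower, 29.1% of all genes), with Inpp5d (0.52 ± 0.18, adjusted p = 0.01704) and Plcg2 (0.37 ± 0.16, adjusted p = 0.04927) added. In ELS mice 9 were higher, that is all but Cd2ap (20.8% of all genes higher; none of the 10 lower, 27.5% of all genes). Beside the age differences, the summed level of the 7 border-associated macrophage markers was 551 to 921 CPM in P9-CTR and 2.84 to 10.6 CPM in P200-CTR-PBS mice, most of it Mrc1 (711 ± 128 and 5.76 ± 2.1 CPM), and 7 of 7 passed as lower. The 8 neuron markers summed to 71.4 to 196 and 2.54 to 11.9 CPM, and 8 of 8 passed as lower. None of these 15 markers was at 0 in all mice of either group. In ELS mice 5 of these 7 and 6 of these 8 passed as lower. Other marker lists were not uniform in CTR mice. Of 7 astrocyte markers, 6 were lower and 1, Slc1a3, was higher. Of 6 oligodendrocyte markers tested, 1 was lower and 2 were higher, and of 4 oligodendrocyte precursor markers tested, 3 were lower. Of 4 endothelial markers tested, 2 were lower and 1 was higher. The part of all these markers in the age differences was not tested. In bulk samples, fewer cells of a type and less RNA per cell cannot be told apart.

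**Figure D3:**
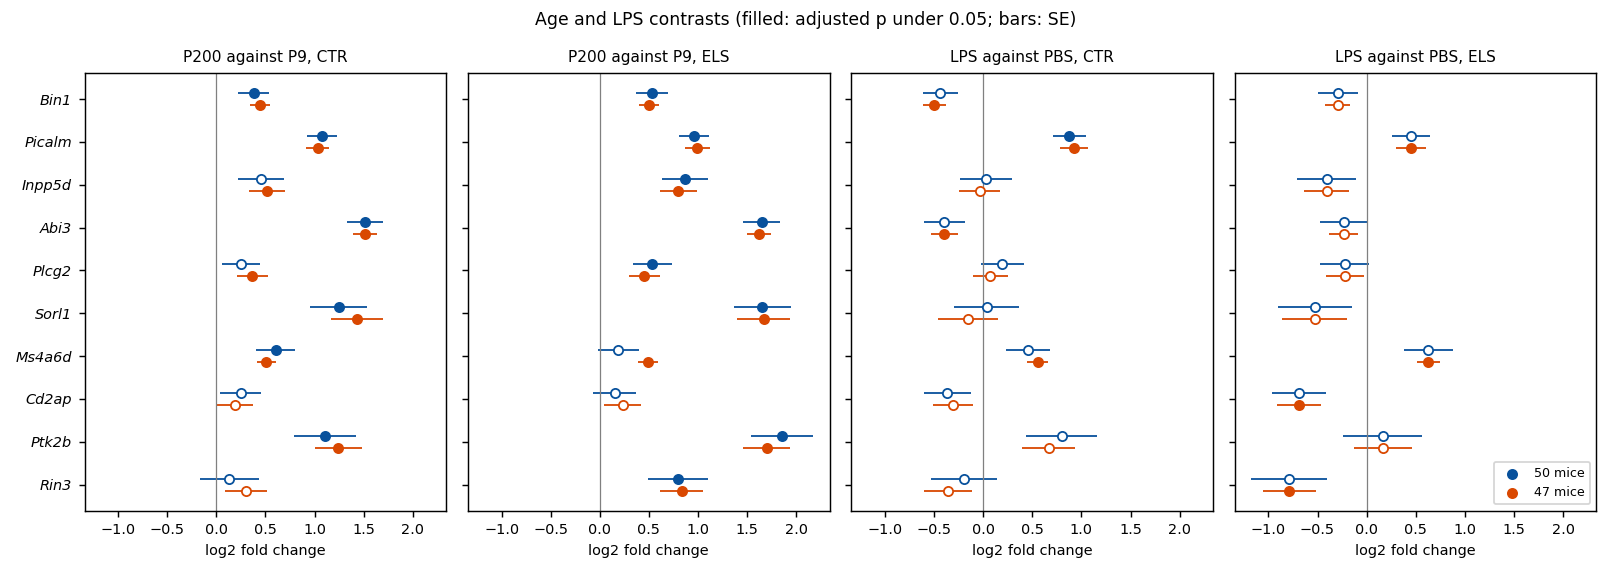
Log2 fold changes with SE of the 10 genes for P200 against P9 and for LPS against PBS, in CTR and ELS mice, with filled points for an adjusted p under 0.05, from all 50 mice (blue) and from 47 mice without the 3 with the fewest detected genes (orange). With 50 mice, 6 and 8 genes passed for age, 1 and 0 for LPS.

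The adult groups then asked how the genes responded to LPS. The 8 response genes checked, among them Cxcl10 and Il1b, all rose in both rearing conditions, by a median of 3.56 in CTR and 3.83 in ELS mice on the log2 scale. Of the 10 risk genes, Picalm alone passed in CTR mice, upwards (8.73% of all genes were higher and 6.2% were lower), and none passed in ELS mice (7.4% higher and 4.94% lower). At an unadjusted p under 0.05, the genes in CTR mice were Picalm, Bin1, Ptk2b and Ms4a6d, and in ELS mice Cd2ap, Ms4a6d, Picalm and Rin3, while 4431 and 4079 of all 16696 genes were at this level. By DESeq2, as by edgeR's quasi-likelihood test, no gene of the 10 passed in ELS mice. The 10 genes had a median log2 fold change of 0.029 in CTR and -0.265 in ELS mice, against 0.005 and -0.035 over all genes.

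Picalm had 266, 340 and 394 CPM in P200-CTR-PBS and 506, 595 and 690 CPM in P200-CTR-LPS mice. Every LPS mouse was above every PBS mouse. The log2 fold change was 0.88 ± 0.17 (adjusted p = 0.0001224), and the call held in the 50 fits that each left out 1 mouse and in the 13 other settings, where adjusted p reached 0.0009785, but the change is below the log2 fold change of 1 that a DEG needs. Picalm was the 1 member without overlap in CTR, where 7.49% of all genes had none (9.42% without the 3 mice). In P200-ELS-LPS, Picalm had 513, 546, 226, 562 and 516 CPM in mice 2-2, 4-2, 11-2, 17-3 and 20-1, against 235 to 401 CPM in P200-ELS-PBS. The level in mouse 11-2 lay below all PBS mice, and the other 4 lay above them. The log2 fold change was 0.45 ± 0.19 (adjusted p = 0.1179) with this mouse and 0.63 ± 0.18 (adjusted p = 0.01498) without it.

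Ms4a6d was the 1 member without overlap between LPS and PBS in ELS mice, where 10% of all genes had none, also without the 3 mice. It had 330, 296, 347, 338 and 331 CPM in the same order of ELS-LPS mice, against 184 to 250 CPM in ELS-PBS mice. The log2 fold change was 0.63 ± 0.25 (adjusted p = 0.0982), and in CTR mice 0.46 ± 0.22 (adjusted p = 0.1806), from a median of 216 to a median of 325 CPM. Neither passed in the fit of all 50 mice, in which all groups share 1 estimate of a gene's spread and mouse 19-2 enters that of Ms4a6d with 646 CPM. Without mouse 19-2 alone, which belongs to neither group, the values were 0.63 ± 0.13 (adjusted p = 0.0004027) in ELS and 0.46 ± 0.12 (adjusted p = 0.003517) in CTR mice.

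Without the 3 mice that stood apart, 4 of the 10 genes passed in each condition. In CTR mice Picalm (0.92 ± 0.14, adjusted p = 1.306e-06) and Ms4a6d (0.55 ± 0.11, adjusted p = 0.0001484) were higher and Bin1 (-0.50 ± 0.12, adjusted p = 0.001055) and Abi3 (-0.39 ± 0.14, adjusted p = 0.03555) were lower, against 10.9% of all genes higher and 9.02% lower. In ELS mice Ms4a6d (0.63 ± 0.12, adjusted p = 6.984e-05) and Picalm (0.45 ± 0.15, adjusted p = 0.0245) were higher and Cd2ap (-0.69 ± 0.23, adjusted p = 0.02243) and Rin3 (-0.79 ± 0.27, adjusted p = 0.02837) were lower, against 11.6% higher and 9.72% lower.

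With all mice, Bin1 had 267, 327 and 422 CPM in P200-CTR-LPS mice against 337.5, 493.3 and 534 CPM with PBS (log2 fold change -0.44 ± 0.18, adjusted p = 0.09185). Abi3 had 389, 483 and 606 CPM against 539, 632 and 721 CPM (-0.40 ± 0.21, adjusted p = 0.2295). For both, the ranges overlapped. Ptk2b had 50 to 152 CPM with LPS and 21.3 to 74.5 CPM with PBS in CTR mice (0.80 ± 0.36, adjusted p = 0.1353), and adjusted p was 0.03517 without mouse 19-2 and 0.08119 without all 3 mice. Cd2ap in ELS mice had 14.5, 25.4 and 43.1 CPM with LPS and 29.25, 37.7 and 63.3 CPM with PBS (-0.69 ± 0.27, adjusted p = 0.08906). It passed without ELS-LPS mouse 17-3, which had the highest LPS value (-0.97 ± 0.28, adjusted p = 0.01905). Inpp5d, Plcg2 and Sorl1 had log2 fold changes between -0.53 and 0.19 over both conditions, with adjusted p of 0.4168 or more. Beside these comparisons, the 7 astrocyte markers summed to 302 to 503 CPM in CTR-PBS and 486 to 618 CPM in CTR-LPS mice. None of them was at 0 throughout, and 1 of 7, Slc1a3, passed as higher. The 5 monocyte markers summed to 0.712 to 9.12 and 2.64 to 7.73 CPM, with Ly6c2 at 0 in both groups and Chil3 at 0 in the first. In ELS mice the astrocyte markers summed to 316 to 456 CPM with PBS and 423.5 to 586 CPM with LPS. Gja1 and Gfap passed as higher there, and Slc1a3 did not pass. Aldoc, Aqp4 and Aldh1l1 averaged only 2.66, 0.254 and 0.136 CPM in ELS-PBS mice, and 3.48, 0.394 and 0.912 CPM in CTR-PBS mice. Other astrocyte markers therefore make up most of the PBS sums of both conditions. The monocyte markers summed to 3.55 to 11 CPM with PBS and 0.878 to 8.35 CPM with LPS in ELS mice. Only 3 of these 5 were tested, and 1, Vcan, passed as higher, at a level no higher than these low sums. Of the microglia markers, Sall1 and P2ry12 passed as lower in both conditions, and C1qa passed as higher in ELS mice. In neutrophil markers the sum was 0 in every ELS-PBS mouse and up to 3.68 CPM with LPS. The part of these markers in the LPS differences was not tested.

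The study's main question was whether ELS alters microglia. None of the 10 genes passed between ELS and CTR mice at P9 (0% of all genes by edgeR's quasi-likelihood test, adjusted p under 0.05), in PBS-injected adults (0.168%) or in LPS-injected adults (0%). By DESeq2, too, none of the 10 passed. At an unadjusted p under 0.05, 1 of the 10 genes was found in these 3 comparisons, Rin3 in PBS-injected adults, and 914, 1622 and 798 of all genes.

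At P9, the log2 fold changes of the 10 genes lay between -0.09 (Bin1) and 0.31 (Ms4a6d). The value of Ms4a6d was 0.31 ± 0.17 with all mice and 0.01 ± 0.08 without the 3 that stood apart. In PBS-injected adults, Rin3 had 9.92, 44.4 and 54.5 CPM in CTR and 33.25, 60.4 and 104 CPM in ELS mice, with a log2 fold change of 0.77 ± 0.35 (adjusted p = 0.4349). The ranges overlapped, and the lowest CTR value was that of mouse 1-1, without which and without the 2 P9 mice the log2 fold change was 0.60 ± 0.25 (adjusted p = 0.3646). Ptk2b had 0.70 ± 0.37 (adjusted p = 0.5712), Inpp5d 0.38 ± 0.27 and Sorl1 0.35 ± 0.34. In LPS-injected adults, the differences lay between -0.37 (Picalm) and 0.22 (Abi3), each with an adjusted p of 1. That of Picalm was -0.37 ± 0.19, with mouse 11-2 as the lowest ELS value. A p that misses the threshold does not show that the levels were equal, and the SEs ran from 0.13 to 0.39 over the 3 comparisons. In PBS-injected adults the unadjusted p of edgeR's quasi-likelihood test was 0.03266 for Rin3 and 0.06695 for Ptk2b. Neither gene passed after adjustment over all genes tested.

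**Figure D4:**
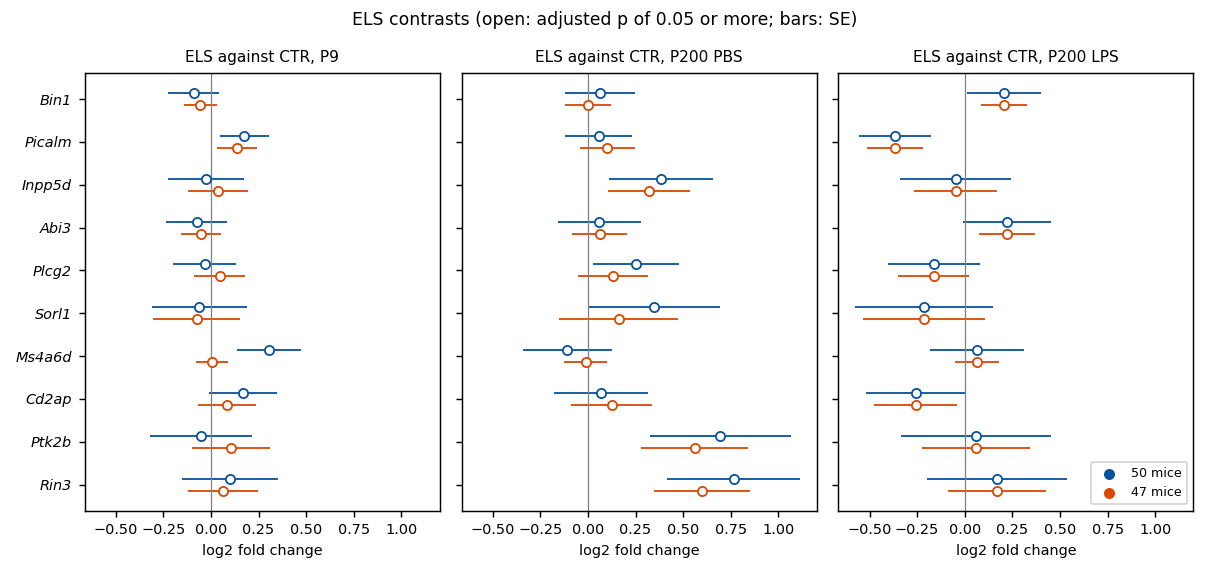
Log2 fold changes with SE of the 10 genes between ELS and CTR mice at P9, in PBS-injected adults and in LPS-injected adults, from all 50 mice (blue) and from 47 mice (orange). All points are open, since none of the 10 genes had an adjusted p under 0.05, and the value of Ms4a6d at P9 moves from 0.31 to 0.01.

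Whether the rearing condition changed the age difference or the LPS response was tested as an interaction. No gene of the 10 passed for age and condition (0.0299% of all genes, 5 by edgeR's quasi-likelihood test and 20 by DESeq2; at an unadjusted p under 0.05, none of the 10 and 1712 of all genes). The largest interactions were those of Ptk2b (0.75 ± 0.46, adjusted p = 0.5954) and Rin3 (0.66 ± 0.43, adjusted p = 0.6218), so that the calls of Inpp5d, Plcg2 and Rin3 in ELS mice alone are not shown to differ between the conditions. For LPS and condition, no gene of the 10 passed either (0% of all genes; at an unadjusted p under 0.05, none of the 10 and 980 of all genes, and by DESeq2 11 of all genes). The interaction of Picalm was -0.42 ± 0.26 (adjusted p = 0.8982).

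The partners of the 10 genes were described by lists of related genes. Of 30 genes of TREM2, DAP12 and tyrosine kinase signalling, 10 were higher and 4 lower at P200 in CTR mice, and 12 and 5 in ELS mice (medians 0.16 and 0.34 on the log2 scale, against -0.09 and -0.014 over all genes). The largest increases in CTR were Blnk (1.04 ± 0.10), an adaptor below SYK, and Dok1 (0.98 ± 0.23), and Ptpn11, a phosphatase, fell by 1.09 on the log2 scale. Trem2 itself rose by 0.66 ± 0.09 on the log2 scale in CTR, from 1464 ± 179 to 2306 ± 239 CPM, while the log2 fold change of Tyrobp, which encodes DAP12, was -0.11 ± 0.12 in CTR (adjusted p = 0.4612). In ELS mice Trem2 rose by 0.39 ± 0.10 and Tyrobp fell by 0.51 ± 0.12. After LPS, 5 of the 30 were higher and 3 lower in CTR mice, with Fgr (2.77 ± 0.69) and Lcp2 (1.25 ± 0.16) as the largest increases.

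Of 24 clathrin and endocytic adaptor genes, the partners of Picalm and Bin1, 2 were higher and 10 lower at P200 in CTR mice, with a median of -0.43. In ELS mice, 2 were higher and 6 lower (median -0.30). Epn2 (1.03 ± 0.22 in CTR) and Fcho2 (0.69 ± 0.18) rose, and Dab2 fell most among those not near 0 (-3.24 ± 0.21), while Sh3bp4 went from 1.78 ± 0.701 to 0.156 ± 0.271 CPM. After LPS, 5 were higher and none lower in CTR mice, among them Hip1, which rose from 1.74 ± 1.36 to 17.4 ± 6.56 CPM, and 2 higher and 1 lower in ELS mice.

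Of the 20 genes of the WAVE complex and Rac, the partners of Abi3, 2 were higher and 13 lower at P200 in CTR mice, and 2 higher and 14 lower in ELS mice (medians -0.67 and -0.77). Rac1 (0.57 ± 0.09) and Wasf2 (0.37 ± 0.16) rose. Of the paralogues of Abi3, the level of Abi1 averaged 197 ± 18.9 CPM in P9-CTR and 198 ± 33.3 CPM in P200-CTR-PBS mice, while Abi2 fell by 1.13 ± 0.24 on the log2 scale (adjusted p = 0.0001138). After LPS, Arpc2 (0.44 ± 0.10 in CTR and 0.55 ± 0.11 in ELS mice) and Arpc1b, both of the actin-branching Arp complex, were the largest increases. Of 24 tested early endosome and retromer genes, 6 were higher and 4 lower at P200 in CTR mice and 5 and 7 in ELS mice. Rabgef1, like Rin3 an activator of early endosomal GTPases, rose after LPS by 1.17 ± 0.21 in CTR and by 1.08 ± 0.24 in ELS mice.

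Of the paralogues of the 10 genes, 16 of 18 could be tested. Rin2, the close relative of Rin3, averaged 517 ± 47.3 CPM in P9-CTR, 669.9 ± 51 CPM in P200-CTR-PBS and 406 ± 68.6 CPM in P200-CTR-LPS mice. It was higher at P200 (0.37 ± 0.09, adjusted p = 0.0009489) and lower after LPS (-0.72 ± 0.11, adjusted p = 6.673e-07, and -0.74 ± 0.12 in ELS mice). Besides Ms4a6d, 5 of 14 listed genes of the MS4A family were tested, of which 1 was higher and 2 lower at P200 in CTR mice and none passed in ELS mice. Ms4a6c rose after LPS in CTR (0.70 ± 0.20, adjusted p = 0.01389) and ELS mice (1.08 ± 0.23, adjusted p = 0.0005703), and Ms4a6b rose with age in CTR mice (0.47 ± 0.15, adjusted p = 0.01053). Ms4a7, which border-associated macrophages express, averaged 2.04 ± 0.917 CPM in P9-CTR and 0.112 ± 0.297 CPM in P200-CTR-PBS mice.

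Of 45 other tested Alzheimer risk genes, 10 were higher and 9 lower at P200 in CTR mice and 8 and 9 in ELS mice. Apoe, a lipid carrier, fell from 8039 ± 1641 CPM in P9-CTR to 54.3 ± 26.9 CPM in P200-CTR-PBS mice (adjusted p = 5.83e-24). Ctsh (1.36 ± 0.10) and Cass4 (1.31 ± 0.26) rose most in CTR mice. After LPS, 8 were higher and 3 lower in CTR mice and 9 and 3 in ELS mice, with Icam1 (3.85 ± 0.27 in CTR) among the largest increases and Tpcn1 (-1.84 ± 0.22) as the largest decrease. Between ELS and CTR mice, no gene of these lists of related genes passed in any of the 3 comparisons. Of the cell type markers, the astrocyte marker Gfap passed as lower in ELS mice among PBS-injected adults.

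The genes also varied together within groups. Correlations of the deviations of log2 CPM from the group means are given as descriptions, since the points share the depth and base composition of a library. Over the 50 mice, the 21 pairs of genes that both had a GC content above 50% in the canonical transcript had a median r of 0.81, the 3 pairs of Cd2ap (40.5% GC), Picalm (42.8%) and Ms4a6d (43.8%) 0.57, and the 21 mixed pairs -0.66. In the 47 mice without the 3 that stood apart, the medians were 0.58, 0.28 and -0.42. The highest pair there was Inpp5d and Plcg2 (r = 0.92) and the lowest Picalm and Abi3 (r = -0.72). For Sorl1, at 50.8% GC, r lay between -0.17 and 0.20 with every other member in these 47 mice. With library offsets for GC content, Abi3 had an age difference of 1.87 ± 0.12 and Picalm of 0.92 ± 0.10 in CTR mice, against 1.51 and 1.08 without.

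**Figure D5:**
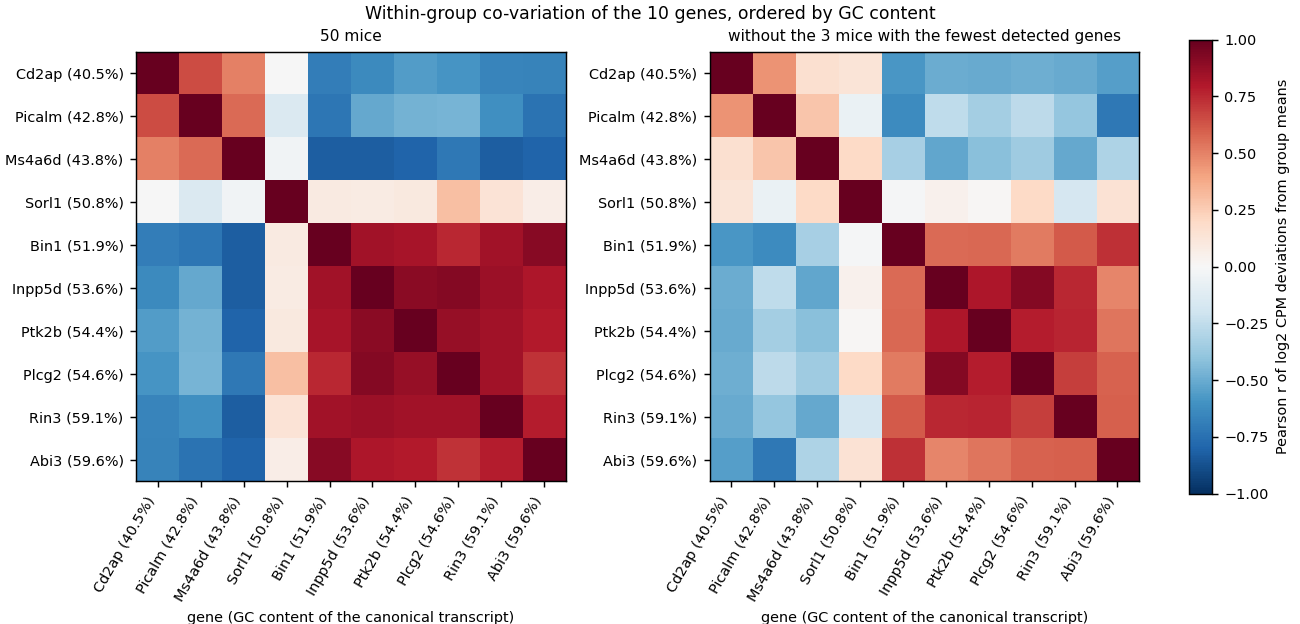
Pearson r between the 10 genes over mice, of the deviations of log2 CPM from the group means, with genes ordered by GC content, for 50 mice (left) and 47 mice (right). With 50 mice, all pairs above 50% GC have a positive r (0.067 to 0.919) and all mixed pairs a negative one (-0.826 to -0.006), and Sorl1 has values between -0.145 and 0.299.

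Over the 50 mice, which differ in age and treatment, the gene most like Abi3 in log2 CPM was Vsir (r = 0.97), an immune checkpoint receptor, followed by Tmem119 (r = 0.97), a marker of microglia. Over the 25 P200 mice it was Zfp652 (r = 0.97), whose exons overlap those of Abi3. The gene most like Bin1 was A830052D11Rik (r = 0.95 over 50 and 0.94 over 25 mice), which shares 6.1% of the exon bases of Bin1 on the opposite strand. Picalm was most like Stk17b (r = 0.95) and Chsy1 (r = 0.95) over the 50 mice, and like Nras (r = 0.91) and Skil (r = 0.90) at P200. Ms4a6d was most like Cd86 (r = 0.94) and the Fc receptor gene Fcgr3 (r = 0.93), and at P200 Fcgr3 came first (r = 0.94). Plcg2 was most like Inpp5d (r = 0.93), and Inpp5d like Slc44a2 (r = 0.94) and Fscn1 (r = 0.94). Ptk2b was most like Tns1 (r = 0.94) and Rin3 like Tsc22d4 (r = 0.90). For Sorl1 (Naa35, r = 0.79) and Cd2ap (Pde3b, r = 0.82) the closest genes over the 50 mice had a lower r than those of the other members. Over the 25 P200 mice the closest gene to Sorl1 was Gm38142 (r = 0.91). Over the 24 P200 mice without mouse 1-1, Gm38142 had a lower r of 0.718, and Mpp6 came first (r = 0.745). In the 47 mice without the 3 that stood apart, A830052D11Rik, Inpp5d, Tns1 and Tsc22d4 stayed the closest to Bin1, Plcg2, Ptk2b and Rin3. The closest gene there was Zfp652 for Abi3 (r = 0.98), Snx10 for Picalm (r = 0.96), Plcg2 for Inpp5d (r = 0.93) and Fcgr3 for Ms4a6d (r = 0.97). It was Maml2 for Sorl1 (r = 0.85) and Edem1 for Cd2ap (r = 0.79).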

How the data were processed

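Poly-A RNA of sorted microglia was sequenced with 1 library per mouse. The authors demultiplexed with bcl2fastq 2.20, trimmed with cutadapt 2.10, mapped with STAR to GRCm39 and counted unique exonic reads with HTSeq 0.11.0, and the deposited values are raw counts per gene. Annotation release and strand setting are not given in the sources used here. Counts were normalized with TMM in edgeR 4.0.16 (R 4.3.3). The 16696 genes that reached 1 CPM in over 2 mice entered edgeR's quasi-likelihood test on 6 group means, with Benjamini-Hochberg adjustment over all of them, and the test was checked on simulated data. Log2 CPM used a prior count of 2. Alternatives used DESeq2 1.42.0, limma 3.58.1 and other filters, and fits without the 3 mice with the fewest detected genes, with GC offsets and with P200 mice only were added after seeing the data. Members and lists were chosen with earlier results of these data known. Named list genes are the 2 largest increases and 2 largest decreases per comparison among those with adjusted p under 0.05, besides paralogues and Apoe, Trem2, Tyrobp, Spi1, Syk, Clu and Cd33. Likeness takes the 2 highest r over 50 and over 25 mice. The number before the hyphen of a mouse, a point in the labels, was treated as the nest. Mice of a nest are not independent, and p-values measure the spread between these mice. Positions come from GENCODE vM39 (GRCm39), which held 52610 of the 53700 genes. The design text gives 12 P9-ELS mice and the labels 13, all used. The PBS and LPS mice of a nest were not paired in the main tests. The deviations of 15 such pairs had a median r of 0.031, against -0.002 in 64 pairs from different nests of the same rearing. Some items are not reported here.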

Additional observations from a re-analysis of the deposited data

Results flagged for a closer look

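Of the 40 combinations of gene and adult group in which a single mouse could be tested for standing apart from the rest, 2 were marked, and chance marks about 1 in 20. Picalm was at 226 CPM in P200-ELS-LPS mouse 11-2, against 513 to 562 CPM in the other 4 mice of that group. In the same mouse Abi3 was at 884 CPM, the highest of its group, and the GC slope of the library was 0.287. Sorl1 was at 37.55 CPM in P200-ELS-PBS mouse 17-1, against 22.8 to 27.8 CPM in the other 5.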

How the results depend on the processing

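For LPS in CTR mice, 1 gene passed (Picalm), and 4 passed (2 higher and 2 lower) with only the groups compared and without the 3 mice with the fewest detected genes, 4 (3 higher and 1 lower) with P200 mice only, and 3 (2 higher and 1 lower) with offsets for GC content. For LPS in ELS mice, 0 passed, and 1 passed with only the groups compared, with limma voom and nest as a random effect, with counts summed per nest and with P200 mice only, 4 without the 3 mice and 3 with GC offsets. With nest as a replicate block, 4 genes (2 higher and 2 lower) passed in CTR, 2 (1 higher and 1 lower) in ELS mice and 0 for the interaction. Of 15 same-nest pairs of a PBS and an LPS mouse, 1 had an r of their deviations over 0.1, and so had 1 of 64 pairs from different nests. The medians were 0.031 and -0.002. These values do not show that mice of a nest are independent. For age in ELS mice, 8 passed, against 5 with only the groups compared. With an absolute log2 fold change above 1 also required, 3 passed for age in ELS mice and 0 for LPS in CTR mice. The fits without the 3 mice, with GC offsets and with P200 mice only were chosen after seeing the data. Leaving out 1 mouse at a time gave 5 to 7 genes for age in CTR, 6 to 9 for age in ELS, 1 to 5 for LPS in CTR and 0 to 2 for LPS in ELS mice, and 0 for the ELS comparisons and interactions, where the highest counts for age in ELS and for LPS came without P9-ELS mouse 19-2. No direction of a call reversed in any setting run. When 1 mouse was left out, 4477 single gene results kept their side of the threshold, 13 lost the call and 10 gained it. Under the other settings, the fold change threshold not included, 1031 kept it, 7 lost and 32 gained the call. Those lost were Bin1 for age in CTR mice with no filter beyond 1 count, with limma voom and with counts summed per nest, Bin1, Plcg2 and Rin3 for age in ELS mice with only the groups compared, and Plcg2 there with counts summed per nest. The cause of these changes was not tested. The lowest counts limit Ptk2b (15 reads in mouse 19-2), Sorl1 (36 reads) and Rin3 (69 reads), while every other gene but Cd2ap had 463 reads or more in every mouse.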
